A study of Bos indicus with 6 samples.

Results

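The HOX cluster genes were taken from the isthmus transcriptome by their symbol, as every row whose symbol, written after the Ensembl identifier, was HOX followed by a cluster letter from A to D and a paralog number. The rule found 35 members among 24616 rows: 11 of the HOXA cluster, 8 of HOXB, 9 of HOXC and 7 of HOXD. A row named HOXD without a paralog number was not counted. All 35 symbols were matched in a RefSeq table of the Bos indicus Tharparkar assembly, where the members of each cluster lay in paralog order along the chromosome. That table lists 39 HOX symbols, and HOXB6, HOXB8, HOXD8 and HOXD11 had no row under the rule and were not analysed here. The genome build of the counts was another one, so no coordinates are given.

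The libraries came from the isthmus, the segment of the oviduct next to the uterus, of 6 healthy multiparous Nelore (Bos indicus) cows, with 1 library per cow. All cows were synchronized with a prostaglandin F2α analog and a GnRH agonist, carried a progesterone device that was inserted with an injection of estradiol benzoate, received prostaglandin at device removal and again later, and were induced to ovulate with GnRH. In the LF/LCL group (cows 617, 79 and 527), managed to ovulate a larger follicle and form a larger corpus luteum, prostaglandin was also given at device insertion and device removal preceded GnRH by 42 h. In the SF/SCL group (cows 856, 97 and 489215), managed to ovulate a smaller follicle, it preceded GnRH by 30 h and no prostaglandin was given at insertion. Tissue through the full thickness of the wall, from the side of the corpus luteum, was collected on day 4. The cows had been picked by a ranking, from the upper end of LF/LCL and the lower end of SF/SCL, so they are not a random draw of either group. The values are normalized counts, which are reads per gene divided by the size factor of the library, so a member can be compared between libraries, whereas levels of different members cannot be compared because no transcript lengths were used.

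HOX genes encode homeodomain transcription factors that give cells their position along the body axis. They lie in clusters in which low paralog numbers are used toward the head and high numbers toward the tail, and adult tissues keep part of this code. In the female tract, which forms from the Müllerian duct, HOXA9 is known for the oviduct, HOXA10 for the uterus, HOXA11 for the uterus and cervix and HOXA13 for the upper vagina. Members were grouped here as anterior (paralogs 1 to 3), central (4 to 8) and posterior (9 to 13).

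The recovered totals were 23899117 to 34193164 reads per library, and the HOX members together held 18525, 23282 and 26546 of them in cows 617, 79 and 527 and 16417, 14739 and 22420 in cows 856, 97 and 489215. Cow 489215 stood apart over the whole transcriptome: among the 15922 genes with a mean above 5, it had the highest value of the 6 libraries for 36% and the lowest for 35.5%. Its library differed too, with a size factor of 0.751 for 25472906 reads, against 0.923 for 23899117 reads in cow 97. By the read counts of the paper, uniquely mapped reads were a smaller part of its mapped reads than in any other isthmus library. The part of the library itself in the values of cow 489215 was not tested. Markers of the cell types of the wall also differed between libraries. The summed normalized counts of 7 smooth muscle markers were 705137 to 825682 in the LF/LCL cows, 320565 in cow 856, 386979 in cow 97 and 1217820 in cow 489215. Cow 489215 was the highest library for 5 of the 7, led by ACTA2 (533926) and TAGLN (270402), but not for LMOD1 (10359) or MYH11 (116653), which was lower there than in the LF/LCL cows (137623 to 191119) and cow 97 (122911). The 10 markers of ciliated cells summed to 15845 to 19913 in LF/LCL, 38469.7 and 39552 in cows 856 and 97, and 12158 in cow 489215, with PIFO at 0 throughout. OVGP1, the oviduct-specific glycoprotein of secretory cells, had 287, 1782 and 1949.9 normalized counts in cows 617, 79 and 527, 271794 in cow 856, 325158 in cow 97 and 729.6 in cow 489215. By the qPCR of the paper, OVGP1 was higher in the ampulla than in the isthmus, without a group effect. In the isthmus libraries here it was far lower in 4 of the 6 than in cows 856 and 97. PAX8 of the same list was also higher in cows 856 and 97 (1441 and 1437, against 469 to 663 in the other 4), whereas MSX1 ran the opposite way, with 125 and 461 in cows 856 and 97 and 1228 to 2739 in the other 4. The 6 mesothelium markers did not move together: MSLN and WT1 carried a sum of 26272 and 26747 in cows 856 and 97, against 2520 to 3499 in the other 4, while LRRN4 and BNC1 were higher in every LF/LCL cow than in any SF/SCL cow. Markers of endothelium (9839 to 14554 over 5 genes) and leukocytes (1917 to 3404 over 7 genes) had narrower ranges of their sums, but single markers went opposite ways. Cow 489215 was highest for 1 of the 5 endothelium markers (EMCN, 4179) and lowest for 2. It was highest for 1 of the 7 leukocyte markers (CD3E, 622) and lowest for 4. In such bulk tissue, fewer cells of a type and less RNA per cell cannot be told apart.

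Of the 35 members, 27 had a mean normalized count above 5 over the 6 libraries. HOXA13, HOXB1, HOXB13, HOXC11, HOXC12, HOXD12 and HOXD13 had 0 reads in each library, and a count of 0 leaves room for up to 3 reads per library. HOXC13 had 2 reads in cow 79, 1 in cow 527 and 0 in the others, which is within the same limit. Thus 7 of the 8 members at or near 0 had a paralog number of 11 or above. HOXA11 was the only member with a number above 10 that had a mean above 5. HOXA11 and HOXD10 reached this mean only through cow 489215, so the rank of that cow for them was fixed by the filter. All 12 central members and 7 of the 8 anterior members were above 5, as were 8 of the 15 posterior members. Intervals and limits drawn from reads cover counting error only.

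Several posterior members differed widely between libraries. HOXA9, HOXA10, HOXB9, HOXC9, HOXC10 and HOXD9 had one order in common: every LF/LCL cow was above both cows 856 and 97, while cow 489215 of the SF/SCL group lay within or above the LF/LCL range. This order of the LF/LCL cows over cows 856 and 97 held for 6 of the 8 posterior members above 5, for 4 of the 12 central and for 1 of the 7 anterior members, and for 24.8% of the 15922 genes with a mean above 5.

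HOXA9 (ENSBTAG00000011476), the paralog tied to oviduct identity, had normalized counts of 4524, 6869 and 8859.8 in LF/LCL cows 617, 79 and 527, and of 1787, 3071 and 7646 in SF/SCL cows 856, 97 and 489215. The groups overlapped through cow 489215 alone. The group means were 6751 ± 2170.5 and 4168 ± 3079.8 (SD, n = 3 each). The log2 fold change, given throughout as SF/SCL over LF/LCL on log2(value + 1), was -0.90 for HOXA9 (limma, standard error, SE, 0.55, Benjamini-Hochberg adjusted p over 15387 genes = 0.739).

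HOXA10 (ENSBTAG00000040082), known for its part in uterine receptivity, had 2094, 2451 and 2178 in the LF/LCL cows and 671, 719.6 and 5991 in SF/SCL cows 856, 97 and 489215. The LF/LCL cows were close together, cows 856 and 97 were lower than each of them, and cow 489215 had more than any other cow. The means of 2241 ± 186 in LF/LCL and 2460.5 ± 3058 in SF/SCL (SD, n = 3 each) do not show this split within SF/SCL. The log2 fold change of HOXA10 was -0.65 (limma, SE 0.83, adjusted p = 0.89). On the recovered reads edgeR gave 0.085, the opposite direction. In cow 489215 HOXA10 was 2.86 times the median of the other 5 libraries.

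HOXA11 (ENSBTAG00000014738), the next gene of the cluster, was near the limit of detection. It had 0, 2 and 2 reads in the LF/LCL cows and 7, 3 and 20 reads in SF/SCL cows 856, 97 and 489215. All SF/SCL cows were above all LF/LCL cows, and most of the SF/SCL reads came from cow 489215. HOXA11 did not pass the filter on the SD. When only the filter on the mean was kept, its log2 fold change of 2.18 had an adjusted p of 0.582 from limma.

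**Figure D1:**
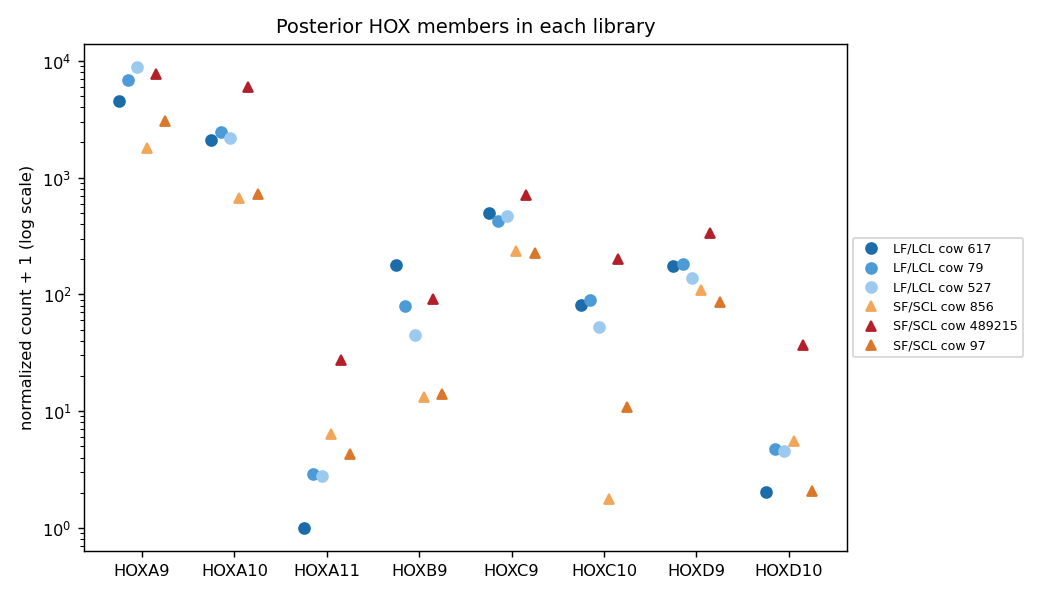
Normalized count plus 1 (log axis) of the 8 posterior HOX members with a mean above 5, with 1 point per library, circles for LF/LCL and triangles for SF/SCL. Cows 856 and 97 lie below the LF/LCL cows for HOXA9, HOXA10, HOXB9, HOXC9, HOXC10 and HOXD9, and cow 489215 is the highest library for 6 of the 8 genes. HOXA11 and HOXD10, which are among these 6, have a mean above 5 only through cow 489215.

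In the HOXB cluster, the posterior member HOXB9 (ENSBTAG00000025009) had 178, 78.8 and 43.9 normalized counts in LF/LCL cows 617, 79 and 527, and 12.2, 13 and 90.5 in SF/SCL cows 856, 97 and 489215. It had the smallest unadjusted p-value of the members tested, 0.098, with a log2 fold change of -1.75 (limma, SE 0.91, adjusted p = 0.673). The spread within LF/LCL was wide, at 100.2 ± 69.5 (SD, n = 3). In the HOXC cluster, HOXC9 had 494, 423 and 471 in the LF/LCL cows and 232, 224 and 709.6 in cows 856, 97 and 489215. The LF/LCL cows were within a narrow range, and no SF/SCL cow fell within it.

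HOXC10, the next gene of that cluster, had the largest ratio of the LF/LCL mean to the mean of cows 856 and 97 among the 27 members above 5. It had 79.5, 89.2 and 51.8 normalized counts in the LF/LCL cows, against 0.76 in cow 856, which was 1 read, 9.75 in cow 97, which was 9 reads, and 199.7 in cow 489215. The mean of the LF/LCL cows was 14.0 times that of cows 856 and 97, and cow 489215 was 3.85 times the median of the other libraries. Because its SD exceeded its mean, HOXC10 was not in the test of all 6 libraries. In the HOXD cluster, HOXD9 had 174, 181 and 137 in the LF/LCL cows and 108, 85.6 and 337 in cows 856, 97 and 489215. HOXD10 was low in 5 libraries, with 1 to 6 reads each, and had 27 reads in cow 489215. Cow 489215 was thus the highest library for HOXA10, HOXA11, HOXC9, HOXC10, HOXD9 and HOXD10. For HOXA11 and HOXD10 this was fixed by the filter on the mean, which they passed only through that cow.

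Among central members the differences were mostly smaller. HOXC6 had 1532, 1542 and 1639 normalized counts in the LF/LCL cows and 833, 1122 and 1911 in SF/SCL cows 856, 97 and 489215, the same order as the posterior members. Its log2 fold change was -0.37 (limma, SE 0.31, adjusted p = 0.836). HOXA5, a regulator of patterning in lung and other organs, had 2113, 2689 and 2588 in LF/LCL and 1600.4, 2486 and 3639 in SF/SCL cows 856, 97 and 489215, and its log2 fold change was -0.01 (SE 0.32). For HOXA5 the spread within the groups was far larger than the difference between them.

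HOXA7 and HOXC8 were the 2 of 24 tested members that were higher in each LF/LCL cow than in any SF/SCL cow, against 8.6% of all genes tested, and HOXD1 was the 1 with the reverse, against 9.51%. HOXA7 had 169.6, 195 and 161 in LF/LCL and 125, 154 and 107 in SF/SCL cows 856, 97 and 489215. HOXC8 had 438, 445 and 491 in LF/LCL and 362, 404 and 210.4 in SF/SCL, with the lowest value in cow 489215. The groups were close to each other in each case, and neither gene passed the test (log2 fold change -0.46 with SE 0.29 for HOXA7 and -0.54 with SE 0.30 for HOXC8, limma adjusted p = 0.751 and 0.704). HOXD1 had 28.3, 28.2 and 33.4 in LF/LCL and 37.2, 33.6 and 38.6 in SF/SCL. Groups that did not overlap in either direction were found for 3 of the 24 members tested and for 18.1% of the 15387 genes tested.

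HOXA6, HOXD3 and HOXD4 were the members in which cow 489215 fell furthest below the others. HOXA6 had 331, 500.3 and 570.0 normalized counts in the LF/LCL cows, 297 in cow 856 and 555 in cow 97, but 67.9 in cow 489215, which was 0.136 times the median of the other libraries. HOXD3, an anterior member, had 67, 125 and 129 in LF/LCL, 201 in cow 856, 170.2 in cow 97 and 39.9 in cow 489215. HOXD4 had 122, 275 and 266 in LF/LCL, 365 in cow 856, 292 in cow 97 and 108 in cow 489215. In both HOXD genes, LF/LCL cow 617 was the next lowest after cow 489215, and cow 856 was the highest. The remaining central members, HOXA4, HOXB4, HOXB5, HOXB7, HOXC4 and HOXC5, had from 127 to 1298 normalized counts in a library. HOXB7 had the order of the posterior members, with 660.4, 511 and 432 in LF/LCL, 373 in cow 856, 246 in cow 97 and 551 in cow 489215. HOXA4 had 461, 756 and 783 in LF/LCL, 321 in cow 856, 496 in cow 97 and 979 in cow 489215. HOXC4 had 920.0, 773 and 717 in LF/LCL, 937 in cow 856, 888 in cow 97 and 1298 in cow 489215 (log2 fold change 0.36, limma, SE 0.23, adjusted p = 0.754). The groups overlapped for each of these 6 genes.

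**Figure D2:**
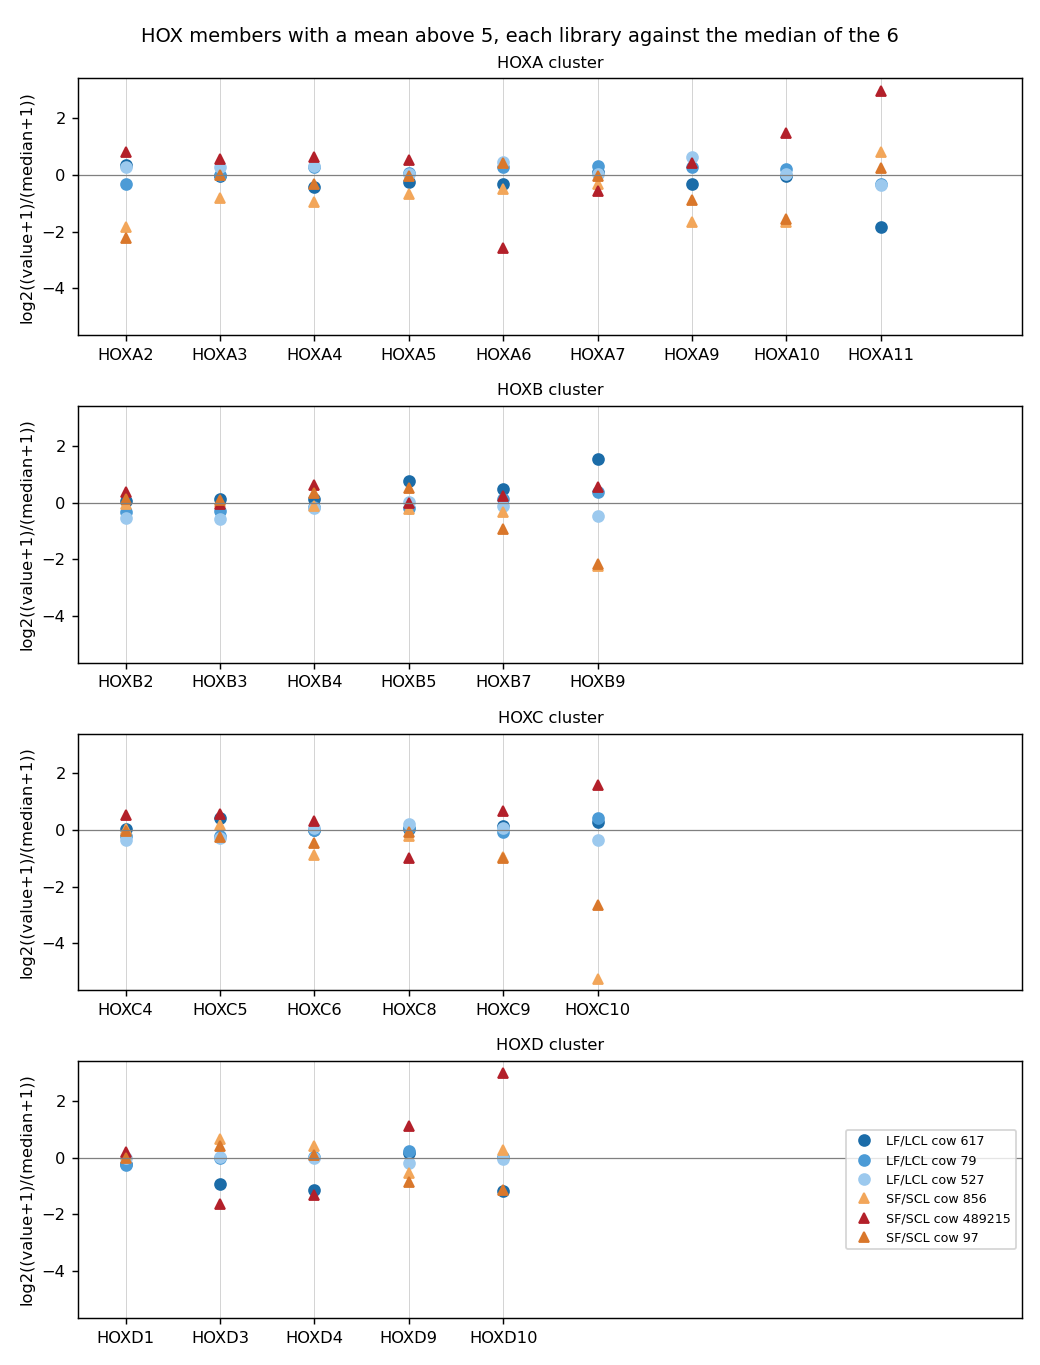
Log2 ratio of each library to the median of the 6 libraries (pseudocount 1) for 26 HOX members with a mean above 5, by cluster and paralog number, with circles for LF/LCL and triangles for SF/SCL. Cow 489215 is highest at HOXA10, HOXA11, HOXC10, HOXD9 and HOXD10 and low at HOXA6, HOXC8, HOXD3 and HOXD4, and cows 856 and 97 are low at HOXA2, HOXA9, HOXA10, HOXB9, HOXC9 and HOXC10.

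Most other anterior members differed little across cows. HOXB2, which acts in hindbrain patterning with HOXB1, had 1527, 1181 and 1007 normalized counts in LF/LCL and 1427, 1614 and 1895 in SF/SCL cows 856, 97 and 489215 (log2 fold change 0.42, limma, SE 0.22, adjusted p = 0.683). HOXB3 had 1399, 1036 and 868 in LF/LCL and 1316, 1374 and 1254 in SF/SCL (log2 fold change 0.28, limma, SE 0.22, adjusted p = 0.822). The SF/SCL cows lay within the LF/LCL range for HOXB3 and partly within it for HOXB2. HOXA3 ran from 357 in cow 856 to 929 in cow 489215. HOXA2 differed from most anterior members: it had 120.4, 75.1 and 115 in the LF/LCL cows, 25.8 and 19.5 in cows 856 and 97, and 166 in cow 489215. HOXA2 was the only anterior member with the order of the posterior genes.

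Read against the whole table, 0 of the 24 HOX members tested had an adjusted p-value under 0.05 from limma, as did 0 (0%) of the 15387 genes. Members with an unadjusted p-value under 0.05 also numbered 0, against 8.66% of all genes. On the recovered reads, edgeR called 0 members, with 0 at the unadjusted threshold (8.7% of all genes), and DESeq2 called 0 members (2.66% of all genes), with 0 at the unadjusted threshold (11.5%) and no adjusted value for HOXA10. The median log2 fold change of the 24 members was -0.16, against -0.02 over all genes tested. Fold changes below 0 were found for 15 of the 24 members and 51.4% of all genes with limma, and for 12 members and 47.2% of all genes with edgeR, so no direction of the family holds under both. By class, the median was 0.28 over 7 anterior members, -0.19 over 12 central members and -0.65 over 5 posterior members. With limma 5 of 5 posterior members tested were below 0, and with edgeR 3 of 5, with a median of -0.29.

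The members were also read without cow 489215, which was planned as one of the fits that leave out a cow. With cows 856 and 97 alone in SF/SCL, limma called 6 of 24 tested members, all higher in LF/LCL. Of all genes tested, 18.2% were called, 7.92% with the higher level in LF/LCL and 10.3% with the higher level in SF/SCL. Posterior members made up 4 of the 6, namely HOXA9, HOXA10, HOXC9 and HOXC10, of 5 posterior members tested. HOXA10 had a log2 fold change of -1.69 (limma, SE 0.11, adjusted p = 0.00188) and HOXC10 of -4.06 (limma, SE 0.79, adjusted p = 0.0189). HOXC9 had -1.01 (limma adjusted p = 0.00822) and HOXA9 had -1.47 (limma adjusted p = 0.0277). The other members called were HOXA2 at -2.13 (limma adjusted p = 0.0119) and HOXC6 at -0.70 (limma adjusted p = 0.0217). HOXD9, the remaining posterior member tested, had -0.75 with an adjusted p of 0.0809 from limma, and HOXB9 did not pass the filter on the SD in these libraries. Leaving out any other cow gave 0 members and 0% of all genes called. The comparison without cow 489215 is one of 3 cows with 2.

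**Figure D3:**
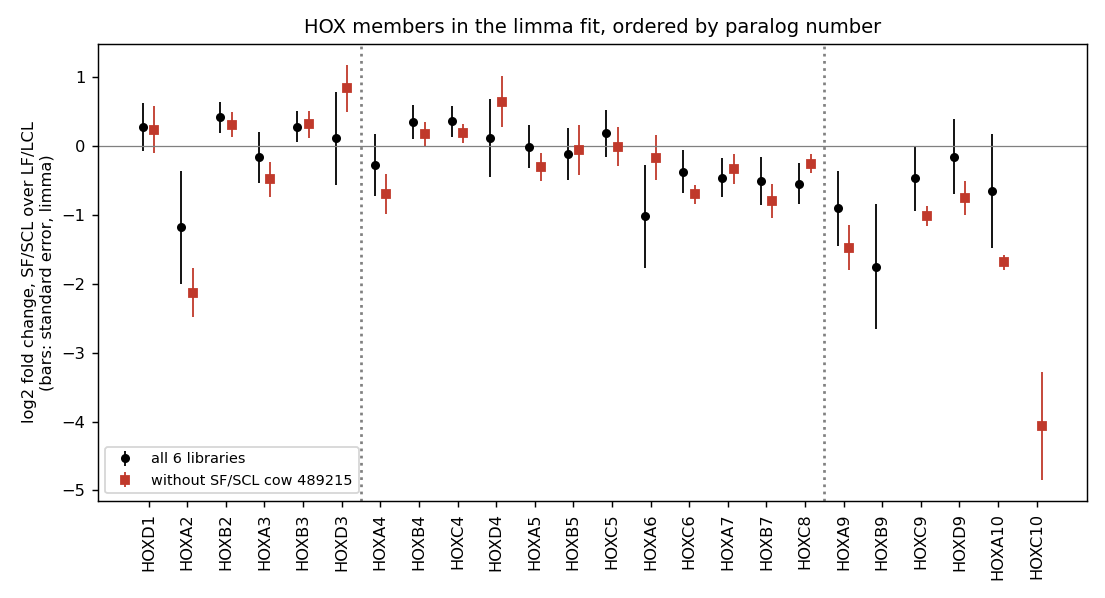
Log2 fold change of SF/SCL over LF/LCL (limma, bars show the standard error) for HOX members that passed the filters, in order of paralog number, from all 6 libraries (black circles) and without cow 489215 (red squares). Dotted lines part the anterior, central and posterior classes, and the posterior members reach -4.06 (HOXC10) when cow 489215 is left out.

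Shares of HOX reads within a library do not depend on the size factor. Posterior members held 38.9% of the HOX reads of cow 617 (95% Wilson interval 38.2 to 39.6), 46.2% in cow 79 and 50.4% in cow 527. They held 22.6% in cow 856 (22.0 to 23.3), 25.8% in cow 97 (25.1 to 26.6) and 50.4% in cow 489215 (49.7 to 51.0). Most posterior reads of each library were of HOXA9 and HOXA10, such as 4322 and 2001 of 7208 in cow 617. In cow 856 these were 2352 and 883 of 3713. The posterior share and sum therefore follow mainly HOXA9 and HOXA10 and do not describe the class as a whole. The anterior members held 12.6% to 19.4% in LF/LCL, 27.2% in cow 856, 24.2% in cow 97 and 14.5% in cow 489215. Central members held 37.0% to 41.7% in LF/LCL, 50.2% in cow 856, 49.97% in cow 97 and 35.1% in cow 489215. Because the shares of a library add up, they do not show which class changed. In normalized counts the anterior members summed to 3765, 3082 and 2940 in LF/LCL cows 617, 79 and 527, 3390.0 in cow 856, 3864 in cow 97 and 4338 in cow 489215. The central members summed to 8080.2, 8671 and 8629 in the LF/LCL cows, 6259.7 in cow 856, 7982 in cow 97 and 10475 in cow 489215. The anterior sums of the groups overlapped, and the smaller posterior shares of cows 856 and 97 went with smaller posterior sums rather than with larger sums of both other classes.

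**Figure D4:**
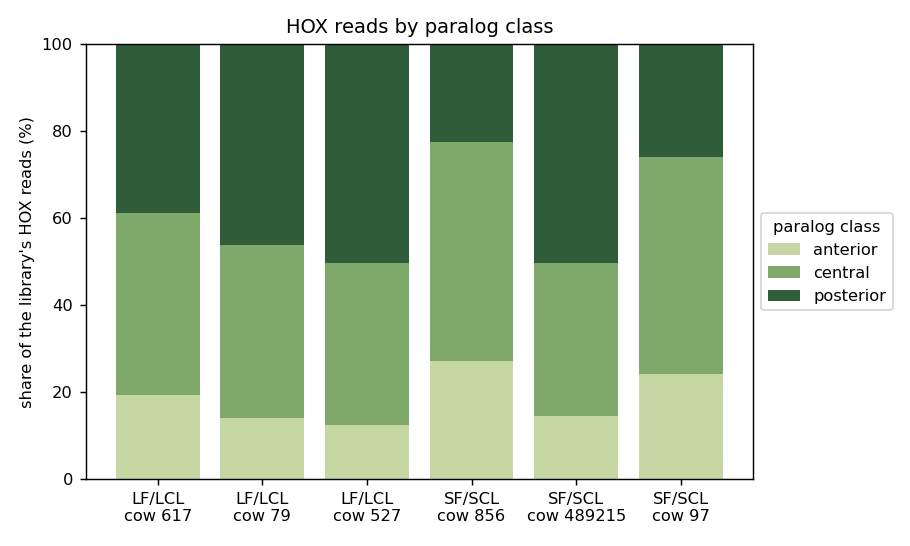
Share of each library's HOX reads (%) held by the anterior (paralogs 1 to 3), central (4 to 8) and posterior (9 to 13) members, as stacked bars for the 6 cows. The posterior share is 22.6% and 25.8% in cows 856 and 97 and from 38.9% to 50.4% in the other 4 cows. Most posterior reads of each library are of HOXA9 and HOXA10.

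The posterior sum, made up mostly of HOXA9 and HOXA10, was set beside the smooth muscle markers. In normalized counts it was 7544, 10099.6 and 11748 in LF/LCL cows 617, 79 and 527, 2820.3 in cow 856, 4128 in cow 97 and 15036 in cow 489215, so the 2 cows lowest in smooth muscle markers were lowest here and cow 489215 was highest in both sums, though not for MYH11 and LMOD1. Within LF/LCL the order was the opposite, since the posterior sum was lowest and the smooth muscle sum highest in cow 617, and the reverse in cow 527. Per 1000 normalized counts of the smooth muscle markers, the posterior members had 9.14, 13.5 and 16.7 in LF/LCL cows 617, 79 and 527, 8.80 in cow 856, 10.7 in cow 97 and 12.3 in cow 489215, and on this scale cow 97 lay within the LF/LCL range. On the same scale the central members had 9.79 to 12.2 in LF/LCL, 19.5 and 20.6 in cows 856 and 97 and 8.60 in cow 489215. The 6 fibroblast markers summed to 289547 to 360441 in LF/LCL, 149134 in cow 856, 155220 in cow 97 and 207425 in cow 489215. Per 1000 fibroblast counts, posterior members had 26.1 to 33.3 in LF/LCL, 18.9 in cow 856, 26.6 in cow 97 and 72.5 in cow 489215. Per 1000 general epithelium counts they had 175 to 409 in LF/LCL, 59.7 and 76.8 in cows 856 and 97 and 222 in cow 489215. Per 1000 ciliated marker counts they had 379 to 741 in LF/LCL, 73.3 and 104 in cows 856 and 97 and 1237 in cow 489215. The part of tissue makeup in the HOX differences was not tested.

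The share of reads between neighbouring members of a cluster is a measure that is free of both library size and the total amount of HOX RNA. Neighbours were consecutive members with a mean above 5. By paralog number, HOXB6, HOXB8 and HOXD8, which had no row, lie inside the pairs HOXB5 with HOXB7, HOXB7 with HOXB9 and HOXD4 with HOXD9. Among 23 pairs of neighbours with a mean above 5, cow 489215 had a share whose 95% Wilson interval was clear of those of all other libraries in 9, above them in 5 and below them in 4. Cow 856 did so in 3 pairs, cows 617 and 97 in 2 each, and cows 79 and 527 in 0. Consecutive pairs share a member, so a single gene can count in 2 pairs, as HOXA6 and HOXC8 did in cow 489215. The same count was not made for pairs of other genes, and the intervals cover counting error only. Cow 489215 was highest for 36% and lowest for 35.5% of the 15922 genes with a mean above 5. Whether clear pairs were more frequent among HOX members than elsewhere was therefore not tested. HOXA6 took 1.83% of the reads of HOXA5 and HOXA6 in cow 489215 (1.40 to 2.40) and 13.5% to 18.2% in the other cows. HOXC8 took 9.92% of the reads of HOXC6 and HOXC8 in cow 489215 and 22.2% to 30.3% in the others. HOXC9 took 77.1% of the reads of HOXC8 and HOXC9 (73.9 to 80.1) and 35.7% to 53.0% in the others. At these steps along HOXA and HOXC, the reads of cow 489215 dropped in the middle of the cluster and rose again past it.

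HOXD9 took 75.7% of the reads of HOXD4 and HOXD9 in cow 489215 (70.9 to 80.0), 58.7% in cow 617, 39.7% in cow 79, 34.0% in cow 527 and 22.8% and 22.7% in cows 856 and 97. HOXA10 took 43.9% of the reads of HOXA9 and HOXA10 in cow 489215 (43.0 to 44.9), 31.6%, 26.3% and 19.7% in cows 617, 79 and 527, 27.3% in cow 856 and 19.0% in cow 97. The balance of HOXA9 and HOXA10 in cows 856 and 97 thus fell within or close to the LF/LCL range, although both genes were lower there. HOXB9 took 21.2%, 13.4% and 9.23% of the reads of HOXB7 and HOXB9 in the LF/LCL cows, 3.16% and 5.02% in cows 856 and 97, and 14.1% in cow 489215. By the RefSeq models the gene spans overlap in 8 pairs of members, 4 in HOXA, 2 in HOXB and 2 in HOXC, and since the strand setting of the counting is not given, values of overlapping members are uncertain to that extent.

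**Figure D5:**
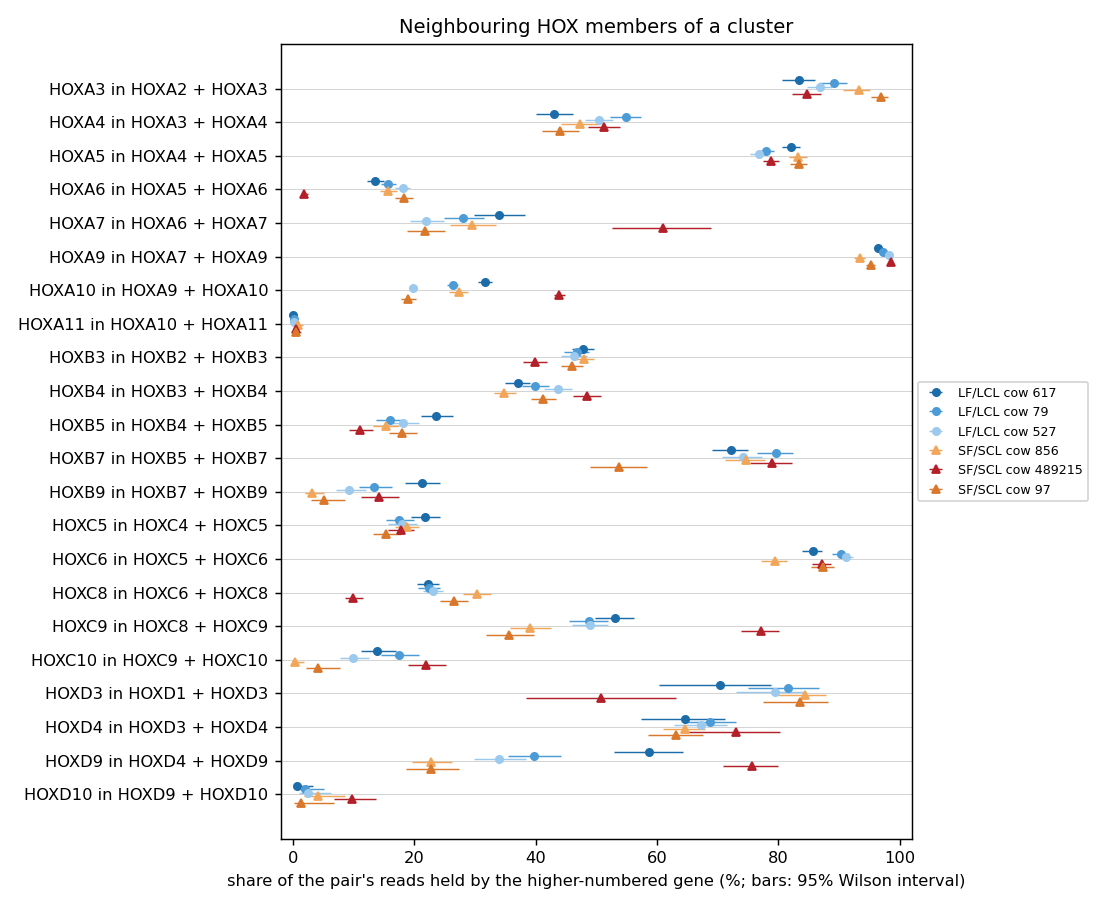
Share of the reads of 2 neighbouring HOX members held by the one with the higher paralog number (%, bars show 95% Wilson intervals) for 22 pairs, with 1 point per library, circles for LF/LCL and triangles for SF/SCL. Neighbours are consecutive members with a mean above 5, so a gene without a row can lie between them. Cow 489215 lies clear of all other libraries in 9 pairs, such as HOXA6 with HOXA5 at 1.83% and HOXC9 with HOXC8 at 77.1%. Consecutive pairs share a member, so 1 gene can count in 2 pairs. The same count was not made for pairs of other genes.

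Against the median of the other 5 libraries, cow 489215 was over 2 times higher for 7 of the 27 members above 5 and for 11.7% of all genes above 5, and under 0.5 times for 4 members and for 23.9% of all genes. Of the 7 members, 6 were posterior and HOXA2 was the other. HOXA11 and HOXD10, which are among these 6, had a mean above 5 only through cow 489215, so their place here was fixed by the filter. The 4 lower ones were HOXA6, HOXC8 and HOXD4 of the central class and HOXD3 of the anterior class. Posterior members ran from 1.68 (HOXC9) to 14.2 (HOXA11) times the median of the other libraries. Apart from HOXA11 and HOXD10, the highest was HOXC10 at 3.85.

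HOX proteins bind DNA with TALE cofactors (the PBX, MEIS and PKNOX families), and their clusters are held silent by Polycomb proteins and kept active by trithorax proteins. Of 54 genes listed for these roles, with geminin and the related homeobox genes, 52 had a row and 42 passed the filters. Limma called 0 of the 42, and 0% of the whole table. An unadjusted p-value under 0.05 was found for 1 of them, against 8.66% over the whole table. That gene was BMI1, a core subunit of Polycomb repressive complex 1, with 691, 769 and 629.8 normalized counts in LF/LCL and 446, 452 and 478 in SF/SCL cows 856, 97 and 489215. Every LF/LCL cow was above every SF/SCL cow, and the log2 fold change was -0.60 (limma, SE 0.19, adjusted p = 0.457).

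The cofactors were well expressed in all libraries. MEIS1 had 5414 to 8506 normalized counts, MEIS2 3258 to 4615.8, and PBXIP1, which binds PBX proteins, 5112 to 13559. PHC2, a Polycomb subunit, had 3775 to 5761. The groups overlapped for these 4 genes, with log2 fold changes of 0.16, 0.20, -0.46 and 0.14. PHF19 and PHF1, which belong to Polycomb repressive complex 2, had -0.95 (SE 0.43) and 0.37 (SE 0.18), and PKNOX2 had -0.88 (SE 0.42). Without cow 489215, 6 of 42 were called: 4 were higher in LF/LCL, namely BMI1, PCGF2, MEOX1 and MEOX2, and 2 were higher in SF/SCL, among them KMT2A. Over the whole table this fit called 18.2% of the genes, 7.92% in the LF/LCL direction and 10.3% in the SF/SCL direction. KMT2A, a trithorax methyltransferase that keeps HOX genes active, had 3246, 3288 and 3989 in LF/LCL, 5488 and 5921 in cows 856 and 97 and 218 in cow 489215. KMT2A was thus lowest in cow 489215, as were 35.5% of the 15922 genes with a mean above 5. Other listed genes of both roles were lowest there too, such as DOT1L (309), KDM6B (280) and PHC1 (783). Others were highest there, such as RING1 (3547) and DPY30 (3178). MEOX2, a homeobox gene of mesoderm, had the posterior order, with 367, 390.5 and 351 in LF/LCL, 174 and 170.2 in cows 856 and 97 and 422 in cow 489215. Of the 12 related homeobox genes with a row, CDX1, CDX2, CDX4, PDX1, GSX1, EVX1 and GBX2 had 0 reads in each library.

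Markers of the neighbouring organs were also read. Of the 5 uterine gland markers listed, 3 had a row, and they did not move together. FOXA2 had 465, 421 and 178 normalized counts in LF/LCL, 174 and 234 in cows 856 and 97 and 256 in cow 489215. UPK1B had 17.8, 89.2 and 33.4 in LF/LCL, 22.0 and 184 in cows 856 and 97 and 29.3 in cow 489215. SPINK1 had at most 1.33 in a library. Of the 4 markers of stratified epithelium of the lower tract that had a row, KRT5 had 13.2 to 419.7 in LF/LCL, 1943 and 683 in cows 856 and 97 and 30.6 in cow 489215, and DSG3 ran the opposite way, with 69.4 to 172 in LF/LCL, 9.12 and 27.1 in cows 856 and 97 and 28.0 in cow 489215. KRT14 and TP63 had at most 31.1 in a library. The 7 markers of general epithelium summed to 28689 to 43112 in LF/LCL, 47235 and 53732 in cows 856 and 97 and 67717 in cow 489215. Of the 7, 4 were higher in each SF/SCL cow than in any LF/LCL cow, and KRT19, CLDN3 and CLDN4 overlapped. CLDN4 had 440 to 1074 in LF/LCL, 344 and 457 in cows 856 and 97 and 2167 in cow 489215. Where along the isthmus each piece was cut is not in the labels, and its part in the HOX values was not tested.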

How the data were processed

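RNA-seq of the isthmus of 6 cows was analysed, 3 per group, with group and cow number from the sample titles. Per the labels and methods, the authors aligned the reads to the masked bovine assembly UMD 3.1 with TopHat2 2.0.8 and Bowtie2 2.1.0, used HTSeq 0.5.4p2 to count reads on Ensembl genes and divided the counts by the DESeq size factors. The strand setting is not given in the sources used here. The deposited signal values are these normalized counts, and 100% of 147696 values were whole multiples of 1 read within 0.02 reads, so reads were recovered.

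Groups were compared with limma 3.58.1 in R 4.3.3 (trend and robust eBayes) on log2(value + 1), without covariates, over the 15387 genes whose mean exceeded both 5 and the SD, with Benjamini-Hochberg adjustment and a threshold of 0.05. The alternatives were edgeR 4.0.16 and DESeq2 1.42.0 on the recovered reads, other pseudocounts, filters and scalings, and leaving out each cow. Tests were tried on simulated data. The members, companion genes, marker lists and classes were chosen with earlier results of these data known. All members were named, except 1 that is counted but whose values are not reported here, as is 1 companion gene. Statistics were given for the 6 with the smallest p-value and the 6 with the highest mean, and for companion genes the 4 of each kind, and other genes were named where a result turned on them after their values were seen. With 3 cows per group an exact test of a single value cannot go below 0.1. Wilson intervals used scipy 1.17.1 in Python 3.11.15.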

Additional observations from a re-analysis of the deposited data

How the results depend on the processing

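Leaving out cow 489215 changed the counts of calls, and leaving out any other cow did not: over the fits that leave out 1 cow, from 0 to 6 HOX members, from 0 to 6 companion genes and from 0 to 2827 of all genes were called, and each upper value is without cow 489215. DESeq2 called 409 genes over the whole table, against 0 with limma and edgeR. HOXA5, near 0 with limma, was 0.030 with edgeR after TMM scaling, and 0.062 both with edgeR after DESeq2 size factors and with DESeq2, and it ran from -0.30 to 0.30 over the fits that leave out 1 cow. HOXA10 was 0.085 and 0.13 with edgeR under the TMM and DESeq2 scalings, on the log2 scale. PHC2 ran from -0.034 to 0.25 when 1 cow was left out, the lowest without cow 489215. The cause of these reversals was not tested. For the HOX and companion genes chosen by smallest p-value or highest mean, 236 values kept their direction and their side of the threshold. Of the others, 9 reversed and 4 passed the threshold without cow 489215 (HOXA9, HOXA10, HOXC6 and BMI1). Genes called in that fit but not so chosen, such as HOXA2, HOXC9 and HOXC10, are not in this count. Scalings moved the median of all genes by no more than 0.07 on the log2 scale. No paired analysis was possible because the groups share no cow numbers. Depth limited HOXA11, HOXC10 and HOXD10, which had 10 reads or fewer in some libraries.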
